A study of Mus musculus with 4 samples.

Results

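TNFRSF9, TNFRSF4, TNFRSF18, TNFRSF14, TNFRSF25 and ICOS encode costimulatory receptors of T cells, and TNFSF14 and CD40LG encode ligands that T cells display. The 8 genes were taken by their gene names, with no threshold on a measured value, and each was found in the files once on a primary chromosome, among 64253 listed genes. TNFRSF14 had a further entry on an alternate contig (ENSG00000273936), which held 0 counts in every library and was left out. All 8 genes had a level of at least 1 CPM (the count scaled to the library total) in all 4 libraries. TNFRSF4 and TNFRSF18 were under the floor of 5 CPM, used below for shares of all genes, in both libraries from after therapy.

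The RNA came from CD8+ T cells with high surface CD11a, an integrin chain that marks antigen-experienced T cells, sorted from the blood of patients who received an antibody against PD-1. The 4 libraries formed 4 groups of 1: responder after therapy, non-responder after therapy, responder before therapy and non-responder before therapy. Every patient received the antibody, in cycles of 4 doses given 3 weeks apart, so the groups differ in the outcome and in the time of sampling that the labels give. One protocol label places all sampling after a cycle, which goes against the labelled group of the earlier libraries; groups here follow the labelled group. The labels name mouse as the organism, whereas the genes in the files are human and lie on the human build hg38. They do not say how many patients a library holds, whether any patient gave 2 libraries, or which cancer was treated, and a PD-1-positive tag stands in the names of both earlier libraries and of no other.

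The libraries held 129773591 and 115446087 counts in the responder and the non-responder after therapy, and 78912300 and 65500644 counts in the responder and the non-responder before therapy. Levels below are CPM after TMM scaling, a correction for differences in library composition. With 1 library in a group no difference between 2 libraries has a replicate check, and every 95% interval covers counting error only. All 7 markers of the sorted cells (CD8A, CD8B, CD3D, CD3E, CD3G, ITGAL and TRAC) were present in every library, at a summed level of 5823 and 3770 CPM in the responder and the non-responder after therapy and 5523 and 4276 CPM before therapy.

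Receptors of the TNF family bind trimeric ligands, recruit TRAF adaptor proteins, and feed NF-kB and survival signals that add to the signal of the T cell receptor. TNFRSF9 (4-1BB), TNFRSF4 (OX40) and TNFRSF18 (GITR) appear on T cells mostly after antigen stimulation, whereas TNFRSF14 (HVEM) and TNFRSF25 (DR3) are also present on resting T cells. ICOS belongs to the CD28 family and signals through PI3 kinase. Of the ligands, TNFSF14 (LIGHT) binds TNFRSF14 and the lymphotoxin beta receptor LTBR, and CD40LG, made chiefly by CD4 helper T cells, activates CD40 on dendritic cells and B cells.

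All 5 TNF receptor genes of the group lie on chromosome 1, within 6.74 Mb between positions 1203508 and 7943165 of hg38. TNFRSF18 (ENSG00000186891, 1203508 to 1206691) and TNFRSF4 (ENSG00000186827, 1211326 to 1214138) are neighbours with a gap of 4634 bases. TNFRSF14 (ENSG00000157873) spans 2555639 to 2565382, TNFRSF25 (ENSG00000215788) 6461151 to 6466195 and TNFRSF9 (ENSG00000049249) 7915894 to 7943165. ICOS (ENSG00000163600) lies on chromosome 2 from 203936748 to 203961577, TNFSF14 (ENSG00000125735) on chromosome 19 from 6661253 to 6670588, and CD40LG (ENSG00000102245) on chromosome X from 136648193 to 136660390.

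Markers of other cells differed between the libraries, and the non-responder after therapy stood apart. In bulk RNA, fewer cells of a type and less RNA per cell cannot be told apart. The 12 monocyte and neutrophil markers summed to 1861 CPM in the responder, with 8908 CPM in the non-responder after therapy, and to 105 and 163 CPM before therapy, and were thus higher after therapy in both outcomes. All 12 were at least 2-fold lower in the responder after therapy. The 8 platelet markers summed to 17.3 and 178 CPM after therapy and 30.7 and 68.0 CPM before therapy, and the 8 dendritic cell markers to 5.50 and 71.1 CPM and to 2.46 and 3.11 CPM, with CLEC9A and CLEC4C at 0 in the responder after therapy, XCR1 at 0 in the non-responder after therapy, and CLEC10A, FLT3 and XCR1 at 0 in both libraries from before therapy. The 8 B cell markers summed to 108 and 86.0 CPM and to 77.8 and 57.3 CPM, with CD22 and PAX5 among the markers at 0 in the responder after therapy. The 7 NK cell markers summed to 574 and 306 CPM and to 607 and 400 CPM, so their sum was higher in the responder at each time. FCGR3A held much of it, at 277 and 140 CPM and at 324 and 200 CPM. NCAM1 was lower in the responder before therapy, at 4.26 and 7.05 CPM, and KLRC1 was at 13.0 and 13.4 CPM after therapy. The rest were higher in the responder at each time. The 5 gamma-delta T cell markers summed to 524 and 418 CPM and to 547 and 503 CPM. The part of any of these cells in the ratios of the 8 genes was not tested.

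**Figure D1:**
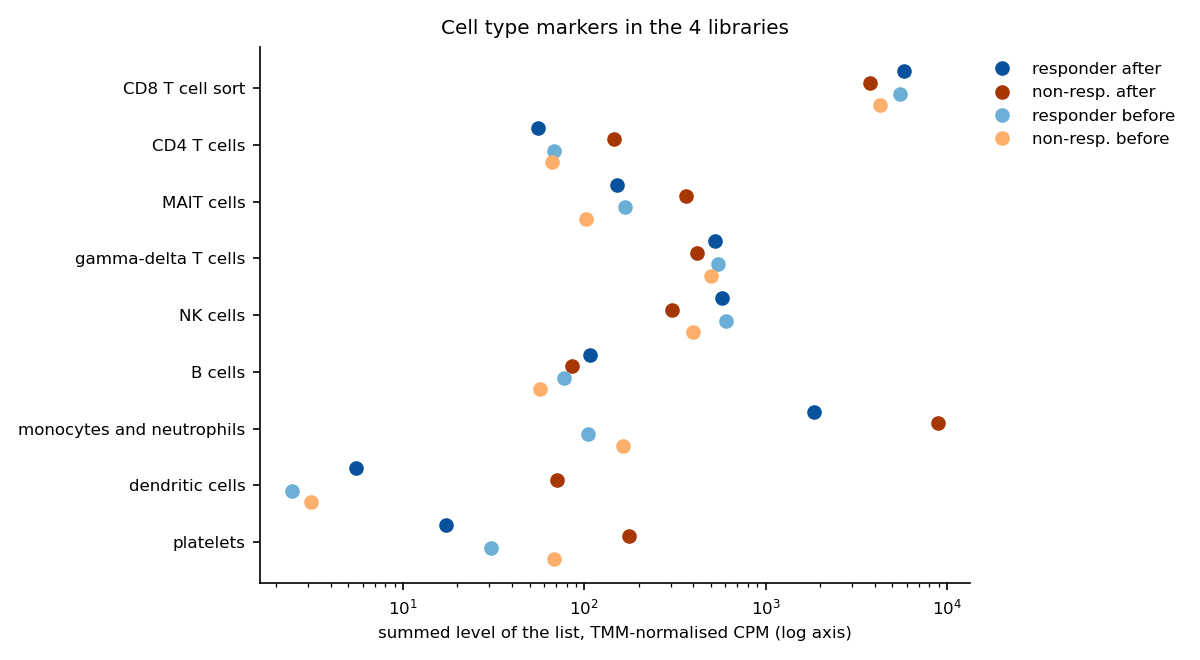
Summed TMM-normalised CPM of each list of cell type markers on a log axis, with 1 point for each library. The monocyte and neutrophil list reaches 8908 CPM in the non-responder after therapy, and the CD4, MAIT, dendritic cell and platelet lists are also highest there. The CD4 list is highest there only through CD4 itself, which monocytes also express.

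The genes varied to different degrees across the 4 libraries. TNFRSF4 differed 8.47-fold between its highest and its lowest library, TNFRSF18 6.44-fold, TNFSF14 5.5-fold and CD40LG 5.38-fold. TNFRSF9 and TNFRSF25 had ranges of 2.9-fold and 2.8-fold, ICOS of 1.93-fold and TNFRSF14 of 1.32-fold. Over the 13233 genes with at least 5 CPM in any library the median range was 1.98-fold, and 15.2% had a range of at least 4-fold. The variable genes did not share 1 pattern. TNFRSF9 and TNFSF14 stood higher in the responder library at each time, and TNFRSF4, TNFRSF18 and TNFRSF25 stood lower after therapy in both outcomes. CD40LG stood higher after therapy in both outcomes and was highest in the non-responder.

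**Figure D2:**
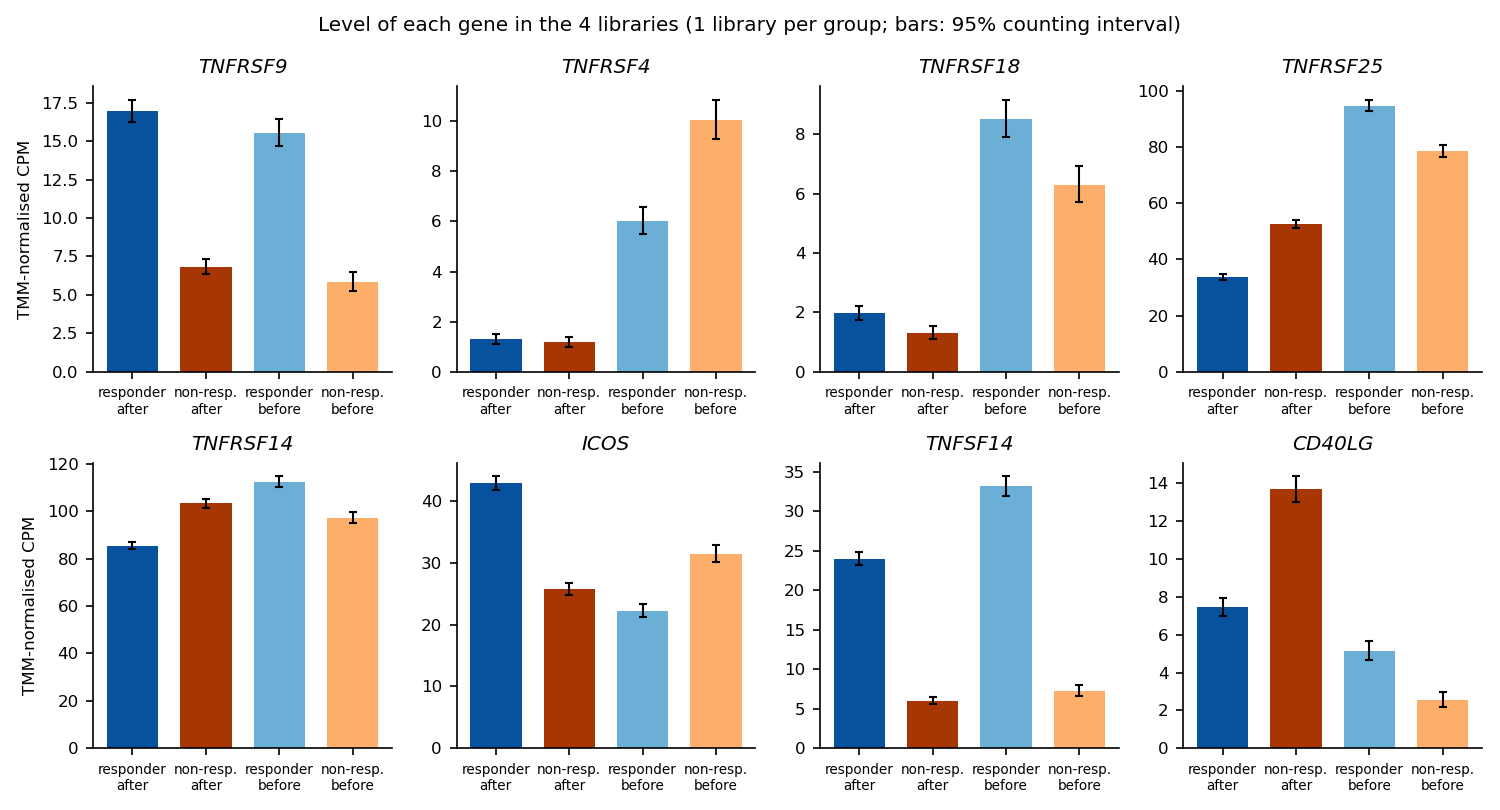
Level of each of the 8 genes, in TMM-normalised CPM on a linear axis from 0, with 1 bar for each library and a 95% counting interval. TNFRSF9 and TNFSF14 stand higher in the responder library at each time, TNFRSF4 and TNFRSF18 stand lower in both libraries from after therapy, and CD40LG stands highest in the non-responder after therapy at 13.7 CPM.

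The comparison of responders with non-responders asks which transcripts go with the outcome of therapy. Among the receptors, TNFRSF9 stood higher in the responder library at each time. It had 2162 counts (17.0 CPM) in the responder, with 763 (6.82 CPM) in the non-responder after therapy, and 1294 (15.5 CPM) in the responder, with 382 (5.86 CPM) in the non-responder before therapy. The responder levels were thus close to each other across the times, as were the non-responder levels. The ratio was 2.49-fold after therapy (log2 1.32, interval 1.20 to 1.44) and 2.65-fold before therapy (log2 1.41, interval 1.24 to 1.58).

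TNFSF14, the ligand, had the widest response ratio of the 8 genes. It had 3057 counts (24.0 CPM) in the responder, with 675 (6.03 CPM) in the non-responder after therapy, and 2762 (33.2 CPM) in the responder, with 476 (7.30 CPM) in the non-responder before therapy. Both responder libraries lay above both non-responder libraries, as for TNFRSF9, and the share of all genes with such an order was not counted. The responder level was 3.98-fold higher after therapy (log2 1.99, interval 1.87 to 2.11) and 4.54-fold higher before therapy (log2 2.18, interval 2.04 to 2.33).

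TNFRSF9 and TNFSF14 had a responder level at least 2-fold above that of the non-responder at both times, 2 of 8 genes, whereas 1.84% of the 11562 genes with at least 5 CPM in each pair did. Of the 8 genes, 6 met that floor, since TNFRSF4 and TNFRSF18 were under it after therapy. A responder level at least 2-fold below was found at both times in 0 of the 8, against 2.01% of those genes. Profiles over the 4 libraries were compared by root-mean-square distance on the log2 scale, after each was centred on its mean. TNFRSF9 and TNFSF14 were the nearest pairing of the 8 genes at 0.454, but TNFRSF14 and TNFRSF25 were almost as near at 0.458. TNFRSF14 with ICOS (0.498) and TNFRSF4 with TNFRSF18 (0.501) came next.

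**Figure D3:**
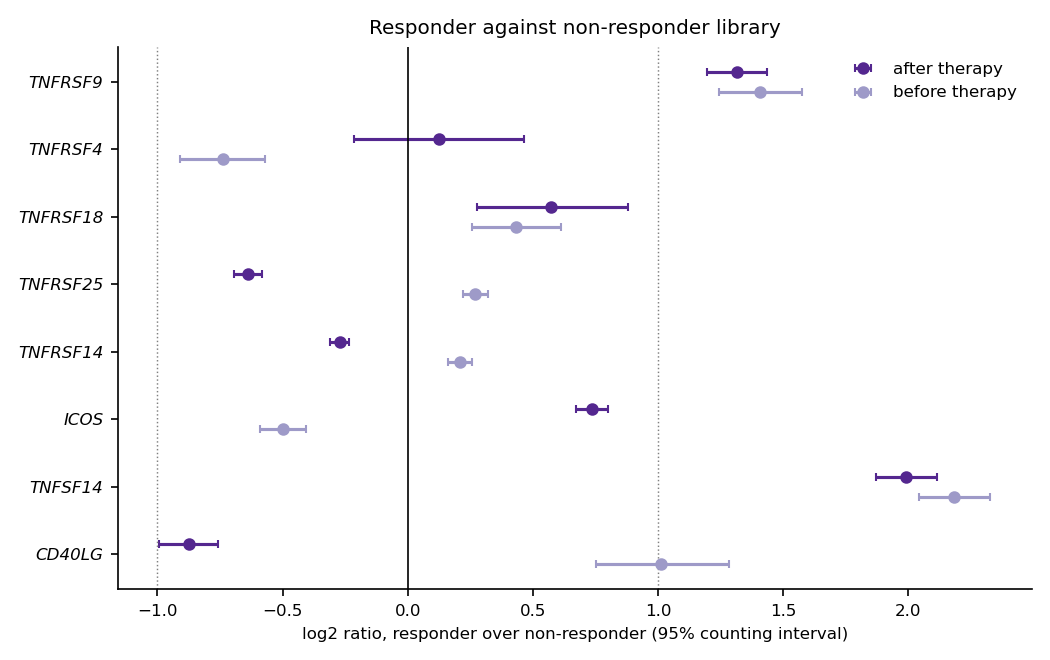
Log2 ratio of the responder over the non-responder library for each gene, with dark points for after therapy, light points for before therapy, bars for 95% counting intervals and dotted lines at a 2-fold difference. TNFRSF9 and TNFSF14 lie beyond 2-fold at both times, while ICOS, TNFRSF25, TNFRSF14 and CD40LG lie on opposite sides of 0.

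Of the other receptors, TNFRSF18 stood higher in the responder at both times by less than 2-fold. Its levels were 1.97 and 1.32 CPM in the responder and the non-responder after therapy, and 8.52 and 6.30 CPM before therapy. The log2 ratio was 0.57 (interval 0.28 to 0.88) after therapy and 0.43 (interval 0.26 to 0.61) before therapy. TNFRSF4 had 1.29 CPM (165 counts) in the responder and 1.19 CPM (133 counts) in the non-responder after therapy, a difference not detectable at this depth (log2 0.12, interval -0.21 to 0.46). Before therapy TNFRSF4 was lower in the responder, at 6.03 CPM (502 counts) against 10.1 CPM (656 counts) in the non-responder (log2 -0.74, interval -0.91 to -0.57).

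The response ratio of ICOS turned round between the times. ICOS had 5461 counts (42.9 CPM) in the responder, with 2880 (25.7 CPM) in the non-responder after therapy, and 1851 (22.2 CPM) in the responder, with 2048 (31.4 CPM) in the non-responder before therapy. The responder library after therapy was the highest of the 4 and the responder library before therapy the lowest. The log2 ratio was 0.74 (interval 0.67 to 0.80) after therapy and -0.50 (interval -0.59 to -0.41) before therapy.

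CD40LG had the widest turn. It stood at 7.47 CPM (952 counts) in the responder and 13.7 CPM (1532 counts) in the non-responder after therapy, and at 5.14 CPM (428 counts) in the responder and 2.55 CPM (166 counts) in the non-responder before therapy. The non-responder libraries thus held both the highest and the lowest level. The log2 ratio was -0.87 (interval -0.99 to -0.76) after therapy and 1.01 (interval 0.75 to 1.28) before therapy, and the ratio before therapy came to 0.99, just under 2-fold, with the size factors of DESeq2.

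TNFRSF25, a receptor for the ligand TNFSF15, stood at 33.8 and 52.6 CPM in the responder and the non-responder after therapy (log2 -0.64, interval -0.69 to -0.58), and at 94.8 and 78.6 CPM before therapy (log2 0.27, interval 0.22 to 0.32). TNFRSF14 was the steadiest of the 8 genes, at 85.5 and 103 CPM in the responder and the non-responder after therapy, and at 113 and 97.4 CPM before therapy, with log2 ratios of -0.27 and 0.21. Intervals on opposite sides of 0 at the 2 times, which 4 of the 8 genes had (ICOS, CD40LG, TNFRSF25 and TNFRSF14), were also found in 24.4% of the 11562 genes. The floor of that share was met by 6 of the 8. The difference between the times in the response ratio has no test, since each group holds 1 library.

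In the later pair, 2 of the 8 were higher in the responder by 2-fold or more (TNFRSF9 and TNFSF14) and 0 of 8 at least 2-fold lower, beside 5.79% higher and 8.85% lower of the 12434 genes that reached 5 CPM in either library. TNFRSF4 and TNFRSF18 were under 5 CPM in that pair, so 6 of the 8 met the floor of that share. In the pair from before therapy, 3 of 8 were at least 2-fold higher (TNFRSF9, TNFSF14 and CD40LG) and 0 of 8 lower, beside 11.5% and 8.93% of 12361 genes. The median log2 ratio of the 8 genes was 0.35 after and 0.35 before therapy, against 0.07 and 0.06 over all these genes. Over the members with at least 5 CPM in the later pair, the median after therapy was 0.23. The 7 markers of the sorted cells had median log2 ratios of 0.52 after and 0.36 before therapy, so the 8 genes did not stand above them.

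A fit over all 4 libraries, with time as a covariate, gave the response ratio a measure of spread. Under it edgeR's quasi-likelihood test left 0 of 24113 genes (0%) past an adjusted p of 0.05, so 0 of the 8 genes passed, while 2119 genes had an unadjusted p under 0.05. TNFSF14 had a fitted log2 ratio of 2.09 ± 0.302 (SE, 2 libraries a side, adjusted p = 0.558 in edgeR) and TNFRSF9 of 1.36 ± 0.348 (adjusted p = 0.558 in edgeR), each higher in 2 of 2 pairs of libraries. For the other 6 genes the fitted ratio lay between -0.31 for TNFRSF4 and 0.50 for TNFRSF18, with adjusted p of 0.777 or more. DESeq2 on the same design called 896 of the 24113 genes (3.72%), with TNFSF14 among them (adjusted p = 1.9e-05) and TNFRSF9 just outside (adjusted p = 0.0518), and limma-voom called 0. Across the alternatives the adjusted p ran from 1.9e-05 to 0.872 for TNFSF14 and from 0.0518 to 0.872 for TNFRSF9.

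The comparison of the times asks which transcripts differ between libraries taken after and before therapy. TNFRSF4 and TNFRSF18, the neighbours on chromosome 1, stood lower after therapy in responder and non-responder libraries alike. TNFRSF4 was 4.64-fold lower in the responder library (log2 -2.21, interval -2.48 to -1.96) and 8.43-fold lower in the non-responder library (log2 -3.08, interval -3.36 to -2.81). TNFRSF18 was 4.31-fold lower in the responder library (log2 -2.11, interval -2.33 to -1.90) and 4.75-fold lower in the non-responder library (log2 -2.25, interval -2.53 to -1.98). These were 2 of 8 genes at least 2-fold lower in both, beside 1.52% of the 11673 genes with at least 5 CPM in each pair of times, and 0 of 8 were at least 2-fold higher in both, beside 3.87%.

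Of the genes that flank them, SDF4, B3GALT6 and UBE2J2 were less than 2-fold apart between the times. SDF4 and UBE2J2 were lower after therapy in both outcomes, and B3GALT6 was higher. This look at the region was added after the values were seen, and the cause of the ratios was not tested. SDF4 had log2 ratios after over before of -0.06 in responder and -0.61 in non-responder libraries, B3GALT6 of 0.20 and 0.13, and UBE2J2 of -0.33 and -0.53. Within 50000 bases of TNFRSF18 and TNFRSF4, the 1 further gene to reach 1 CPM in any library was RP5-902P8.12, at 0.188 and 1.18 CPM in the responder and the non-responder after therapy and at 0 and 0.123 CPM before therapy.

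TNFRSF25 was lower after therapy as well, 2.8-fold in the responder library (log2 -1.49, interval -1.54 to -1.43) and 1.49-fold in the non-responder library (log2 -0.58, interval -0.63 to -0.52). TNFRSF9 differed little between the times, with log2 ratios of 0.13 (interval 0.03 to 0.23) in responder and 0.22 (interval 0.04 to 0.40) in non-responder libraries. TNFSF14 was lower after therapy by less than 2-fold, with log2 ratios of -0.47 and -0.28.

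ICOS and CD40LG differed between outcomes in how the times compared. ICOS was 1.93-fold higher after therapy in the responder library (log2 0.95, interval 0.87 to 1.02) and lower in the non-responder library (log2 -0.29, interval -0.37 to -0.20). CD40LG was 1.45-fold higher after therapy in the responder library (log2 0.54, interval 0.37 to 0.71) and 5.37-fold higher in the non-responder library (log2 2.42, interval 2.19 to 2.67). TNFRSF14 was lower after therapy in the responder library (log2 -0.40) and slightly higher in the non-responder library (log2 0.09). Intervals on opposite sides of 0 in responder and non-responder libraries, as for ICOS and TNFRSF14, were found in 23% of the 11673 genes, and the difference between outcomes has no test.

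**Figure D4:**
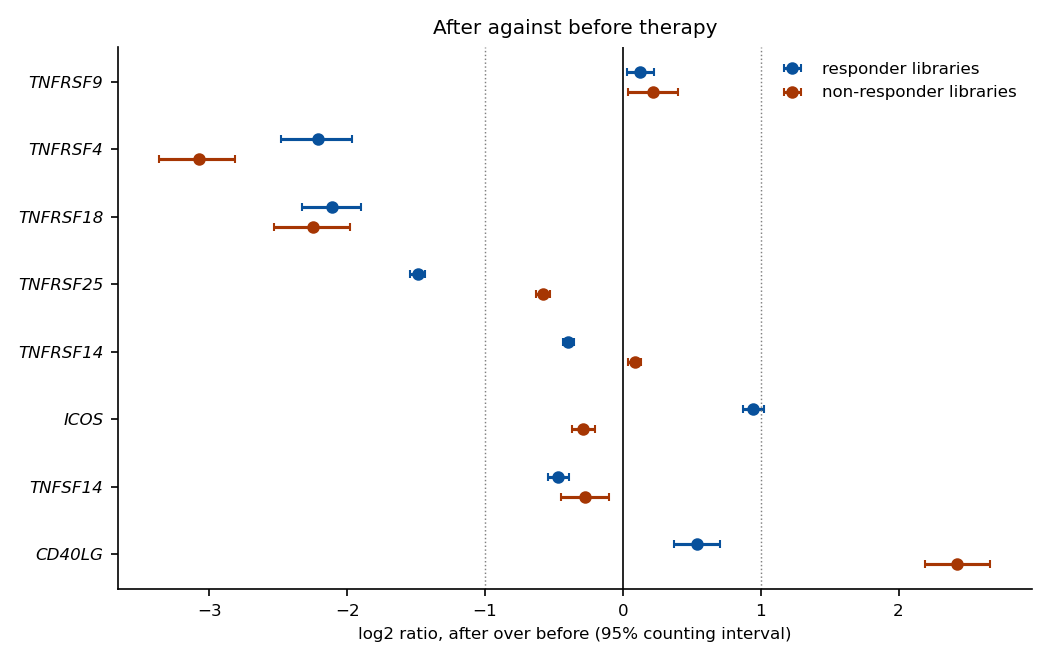
Log2 ratio of the library from after therapy over that from before therapy for each gene, with blue points for responder and brown points for non-responder libraries, bars for 95% counting intervals and dotted lines at a 2-fold difference. TNFRSF4 and TNFRSF18 lie beyond -2 in both, and CD40LG lies at 2.42 in the non-responder libraries.

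In the responder libraries, 0 of 8 genes were at least 2-fold higher after therapy and 3 of 8 lower (TNFRSF4, TNFRSF18 and TNFRSF25), beside 8.5% higher and 4.69% lower of 12265 genes that reached 5 CPM in either. In the non-responder libraries, 1 of 8 was higher (CD40LG) and 2 of 8 lower (TNFRSF4 and TNFRSF18), beside 15.6% and 8.25% of 12641 genes. The median log2 ratio of the 8 genes was -0.43 and -0.28, against 0.07 and 0.07 over all these genes. The labels do not say that any patient gave a library at both times, and the PD-1-positive tag goes with the libraries from before therapy, so time, patient and any gate on PD-1 cannot be told apart.

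With response as a covariate, edgeR's quasi-likelihood test of after against before called 0 of 24113 genes (0%), with 2732 at an unadjusted p under 0.05. TNFRSF4 had a fitted log2 ratio of -2.65 ± 0.546 and TNFRSF18 of -2.18 ± 0.486 (SE, 2 libraries a side, adjusted p = 0.409 for each in edgeR), and TNFRSF25 of -1.03 ± 0.308 (adjusted p = 0.416), each lower after therapy in 2 of 2 pairs. CD40LG had 1.48 ± 0.661 (adjusted p = 0.498), higher in 2 of 2 pairs. DESeq2 called 1516 genes (6.29%), with 3 of the 8 among them: TNFRSF4 (adjusted p = 0.00303), TNFRSF18 (adjusted p = 0.0149) and TNFRSF25 (adjusted p = 0.04). The highest adjusted p across the alternatives was 0.518 for each of the 3. The count with limma-voom was 2, and none of the 8 was in it.

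Set per kilobase of the length that the files list for each gene under the name coding length, which for these genes runs past the protein-coding part, levels can be compared between genes. By that measure the receptors of resting T cells and ICOS led in all 4 libraries. After therapy ICOS was first in the responder at 16.2 CPM per kb, before TNFRSF14 at 13.8 and TNFRSF25 at 8.63, whereas in the non-responder TNFRSF14 came first at 16.6, before TNFRSF25 at 13.4 and ICOS at 9.73. Before therapy TNFRSF25 came first, at 24.2 CPM per kb in the responder and 20.1 in the non-responder. The last place differed between the times, with TNFRSF4 last after therapy, at 0.752 CPM per kb in the responder and 0.69 in the non-responder, and TNFRSF9 last before therapy, at 2.45 and 0.925. The counting intervals of most neighbours in these orders did not overlap. Those that did were TNFRSF9 with TNFRSF18 and TNFRSF18 with TNFRSF4 in the non-responder after therapy, TNFSF14 with TNFRSF18 and CD40LG with TNFRSF9 in the responder before therapy, and TNFSF14 with CD40LG in the non-responder before therapy.

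**Figure D5:**
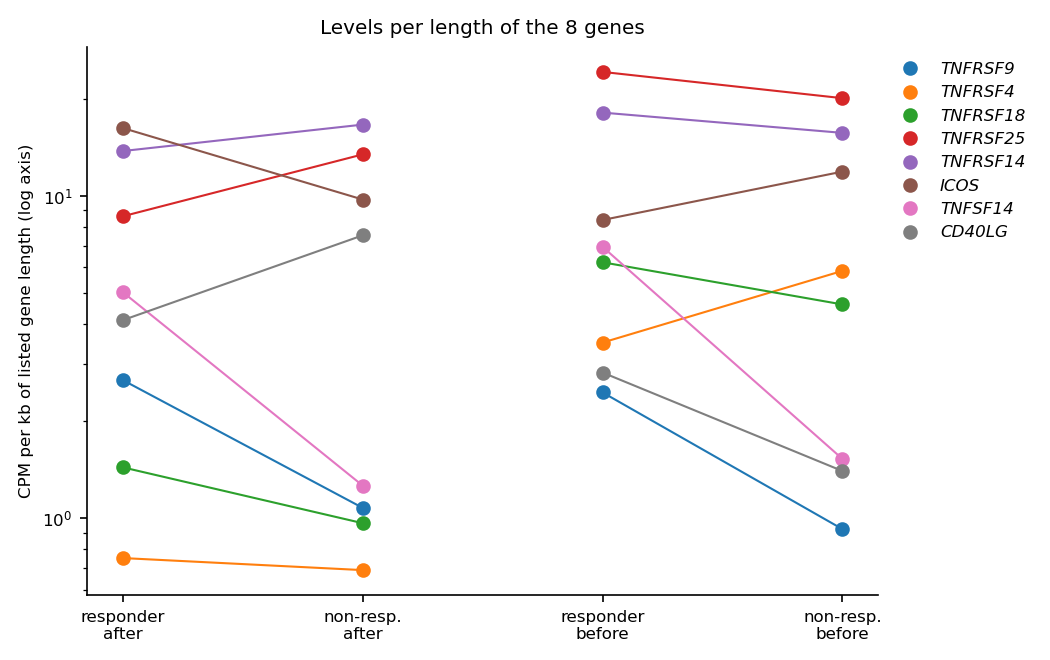
Level of the 8 genes per kilobase of listed gene length on a log axis, with 1 point for each library and lines that join the responder to the non-responder library of the same time. ICOS, TNFRSF14 and TNFRSF25 hold the top 3 places in every library, and TNFRSF4 and TNFRSF18 hold the lowest places after therapy.

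The receptor TNFRSF14 outweighed its ligand TNFSF14 in every library by these per-length levels. The ratio of receptor to ligand was 2.74 in the responder and 13.2 in the non-responder after therapy, and 2.61 in the responder and 10.2 in the non-responder before therapy. TNFRSF9 against its ligand TNFSF9 gave 0.941 in the responder and 0.303 in the non-responder after therapy, and 0.948 and 0.12 before therapy.

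Other genes of these pathways were counted where they had at least 1 CPM in any library, a floor under the 5 CPM used above. Of all 18824 genes that reached it, 9.05% were at least 2-fold higher and 14.8% lower in the responder after therapy, and 17.6% were higher and 13.9% lower before therapy, with median log2 ratios of 0.0077 and 0.05. Partners of the 8 genes came from a list of 11, of which 9 reached that floor. In the responder 1 of the 9 was at least 2-fold higher and 2 lower after therapy, and 3 were higher and 2 lower before therapy. Among the 6 that reached 5 CPM in the pair from after therapy, 0 were higher and 1 was lower. Among the 5 that did so before therapy, 2 were higher and 1 was lower. BTLA, an inhibitory receptor that binds TNFRSF14, stood at 7.41 and 4.56 CPM in the responder and the non-responder after therapy and at 7.42 and 0.874 CPM before therapy. CD160, a further receptor for TNFRSF14, stood at 79.8 and 84.0 CPM after therapy and at 116 and 53.4 CPM before therapy. LTBR, which binds TNFSF14 and is found on stromal and myeloid cells, stood at 3.22 and 20.8 CPM after therapy and at 0.204 and 0.123 CPM before therapy. TNFSF9 was lower in the responder at each time, at 4.74 and 5.91 CPM after therapy and at 4.31 and 12.8 CPM before therapy. CD40, the receptor for CD40LG, stood at 4.78 and 7.68 CPM after therapy and 7.51 and 7.39 CPM before therapy.

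Ligands for the remaining receptors were scarce. TNFSF4, the ligand of TNFRSF4, stood at 4.55 CPM in the responder, with 0.143 CPM in the non-responder after therapy, and at 0.637 and 0.0307 CPM before therapy. TNFSF18 and TNFSF15, the ligands of TNFRSF18 and TNFRSF25, had at most 19 and 2 counts in any library. ICOSLG, the ligand of ICOS, stayed at or below 1.03 CPM, and a near-identical entry of the same name on chromosome 21 may share its reads.

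Of the other 24 receptors of the TNF family, 20 had at least 1 CPM in any library. In the responder 3 were at least 2-fold higher and 11 at least 2-fold lower after therapy, and 7 were higher and 1 lower before therapy. Several of these rest on few counts: among the 11 that reached 5 CPM in the pair from after therapy 1 was higher and 5 were lower, and among the 9 that did so before therapy 3 were higher and 1 was lower. RELT stood at 4.74 CPM in the responder, with 36.1 CPM in the non-responder after therapy, and at 9.49 and 23.6 CPM before therapy. TNFRSF8 (CD30) stood at 2.90 and 8.08 CPM after therapy and at 0.3 and 0 CPM before therapy. TNFRSF1A, a receptor for TNF, stood at 39.2 and 49.2 CPM in the responder and the non-responder after therapy and at 50.2 and 18.0 CPM before therapy. TNFRSF12A, the receptor for TNFSF12, stood at 0.706 and 1.43 CPM after therapy and at 9.38 and 2.50 CPM before therapy. Both were lower in the responder after therapy and higher in it before therapy.

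Among 16 other ligands of the family, 13 with at least 1 CPM, 4 were at least 2-fold higher and 3 lower in the responder after therapy, and 5 were higher and 1 lower before therapy. Among the 10 that reached 5 CPM in the pair, 1 was higher and 3 were lower after therapy, and 3 were higher and 1 was lower before therapy. TNF stood at 5.22 and 33.3 CPM in the responder and the non-responder after therapy and at 36.3 and 44.0 CPM before therapy. The B cell survival factors TNFSF13 and TNFSF13B, made mostly by myeloid cells, stood at 15.6 and 78.1 CPM and at 11.3 and 54.9 CPM after therapy, and at 6.77 and 8.95 CPM and at 2.51 and 3.86 CPM before therapy. FASLG, which triggers cell death, stood at 41.6 and 15.2 CPM in the responder and the non-responder after therapy and at 48.3 and 7.96 CPM before therapy, and was higher in the responder at each time. TNFSF10 (TRAIL), a further death ligand, turned round, at 46.5 and 89.8 CPM after therapy and 51.9 and 14.1 CPM before therapy.

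In the CD28 and B7 families, apart from ICOS, 10 of 11 genes had at least 1 CPM, and 2 were at least 2-fold higher and 3 lower in the responder after therapy, and 4 higher and 2 lower before therapy. Among the 6 that reached 5 CPM in the pair from after therapy, 2 were higher and 1 was lower. Among the 5 that did so before therapy, 2 were higher and 0 lower. CD28, the closest relative of ICOS, did not follow the pattern of ICOS, at 44.6 and 55.6 CPM in the responder and the non-responder after therapy and 27.9 and 18.2 CPM before therapy. CTLA4, next to ICOS on chromosome 2, stood at 22.0 and 15.4 CPM and at 13.2 and 13.1 CPM. CD86, a ligand of CD28 on antigen-presenting cells, stood at 13.9 and 54.2 CPM after therapy and at 0 and 0.291 CPM before therapy. CD274 (PD-L1) stood at 19.3 and 4.32 CPM after therapy and at 9.10 and 15.5 CPM before therapy. PDCD1, which encodes PD-1, stood at 28.7 and 7.88 CPM after therapy and 31.4 and 4.98 CPM before therapy, and was thus higher in the responder at each time, as TNFSF14 was.

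Of the 12 TRAF adaptors and genes of the alternative NF-kB pathway, through which these receptors signal, all had at least 1 CPM. In the responder 0 were at least 2-fold higher and 2 lower after therapy, and 1 was higher and 3 lower before therapy, with median log2 ratios of -0.06 and -0.36. RELB, a subunit of the pathway, stood at 13.4 CPM in the responder, with 28.5 CPM in the non-responder after therapy, and at 10.6 and 53.6 CPM before therapy. TRAF4 stood at 2.44 and 11.3 CPM and at 3.44 and 9.15 CPM. TRAF5 was higher in the responder, at 104 and 70.9 CPM after therapy and 83.1 and 31.6 CPM before therapy, and TRAF1, an adaptor of TNFRSF9, lay between 46.9 and 55.5 CPM in all 4 libraries.

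Regnase-1 (ZC3H12A) and the Roquin proteins (RC3H1 and RC3H2) are known, chiefly from mouse T cells, to restrain the mRNA of ICOS and TNFRSF4. ZC3H12A stood at 56.3 and 81.7 CPM in the responder and the non-responder after therapy and at 37.4 and 176 CPM before therapy. RC3H1 was 77.0 and 77.8 CPM after therapy and 46.3 and 48.0 CPM before therapy, and RC3H2 87.4 and 101 CPM and 77.9 and 82.7 CPM.

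TNFRSF9 is a gene that stimulation induces, so 8 further genes of activated T cell surfaces were read beside it. In the responder 2 were at least 2-fold higher and 2 lower at each time. CD69, which appears within hours of stimulation, stood at 959 and 1690 CPM in the responder and the non-responder after therapy and at 285 and 883 CPM before therapy, and CD83 at 8.81 and 73.4 CPM and at 17.0 and 89.5 CPM. Both were lower in the responder at each time. CD38, at 29.1 and 9.42 CPM after therapy and 25.1 and 21.0 CPM before therapy, and SLAMF1, at 25.6 and 20.0 CPM after therapy and 47.4 and 14.6 CPM before therapy, were higher in the responder at each time, as TNFRSF9 was.

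The 8 genes of naive and memory T cells, a state in which TNFRSF25 and TNFRSF14 are present, were at least 2-fold apart in 0 cases after therapy and in 1 case before it. CCR7, the lymph node homing receptor, stood at 50.8 and 60.9 CPM in the responder and the non-responder after therapy and at 164 and 61.8 CPM before therapy. IL7R stood at 469 and 326 CPM and at 286 and 145 CPM. None of the genes of these lists passed the edgeR test in either comparison.

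Genes with profiles most like those of the 4 members that varied at least 4-fold were taken from 8979 genes with a mean of at least 10 CPM, by root-mean-square distance between centred log2 profiles over the 4 libraries. Nearest to TNFSF14 were APOBEC3F at a distance of 0.25, MON1A at 0.29 and LPAR5 at 0.29. APOBEC3F, an antiviral cytidine deaminase, stood at 20.9 and 6.73 CPM in the responder and the non-responder after therapy and at 27.3 and 9.14 CPM before therapy. Nearest to TNFRSF18 were the transcription factor ASCL2 at 0.17, PROM1 at 0.24 and FGFBP2 at 0.28, and nearest to TNFRSF4 were RNA28S5 at 0.43, SLC1A7 at 0.46 and PROM1 at 0.48. FGFBP2, a secreted protein of cytotoxic lymphocytes, stood at 174 and 91.3 CPM after therapy and at 433 and 452 CPM before therapy, and RNA28S5 is a ribosomal RNA gene. CD40LG had the closest neighbours, ALMS1 at 0.06, HCG4B at 0.08 and ACSL1 at 0.09. ACSL1, a fatty acid activating enzyme, stood at 36.8 and 75.7 CPM in the responder and the non-responder after therapy and at 24.3 and 13.8 CPM before therapy.

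CD40LG was highest in the non-responder after therapy, the library in which the CD4, MAIT, monocyte and neutrophil, dendritic cell and platelet lists also had their highest sums. The 8 markers of CD4 T cells summed to 55.8 and 147 CPM in the responder and the non-responder after therapy and to 68.5 and 66.3 CPM before therapy. CD4 itself, which monocytes also express, stood at 11.5 and 94.7 CPM and at 4.48 and 4.81 CPM. It thus held 94.7 of the 147 CPM in the non-responder after therapy, and without it the CD4 list was not highest in that library. FOXP3, the regulatory T cell factor, stood at 1.61 and 2.32 CPM and at 2.02 and 3.68 CPM. The 7 markers of MAIT cells, innate-like T cells of which many carry CD8, summed to 152 and 362 CPM after therapy and to 167 and 102 CPM before therapy. CEBPD alone held 163 of the 362 CPM, and stood at 15.8 CPM in the responder after therapy and at 12.1 and 7.33 CPM before therapy. Without CEBPD the MAIT list was still highest in the non-responder after therapy. Of the 7 MAIT markers, 0 were at least 2-fold higher and 5 lower in the responder after therapy, CEBPD among them, and 3 were higher and 0 lower before therapy. In the responder libraries the sums of both lists were lower after therapy than before, but single markers went both ways. CD4 (11.5 against 4.48 CPM) and IL18R1 (54.8 against 21.7 CPM) were higher after therapy there, as CD40LG was. CXCR5 (6.86 against 21.3 CPM) and SLC4A10 (7.53 against 20.2 CPM) were lower. The part of any of these cells in the CD40LG values was not tested.

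Reads of overlapping genes cannot be assigned with certainty, since no strand setting is given. TNFRSF14 shares 1393 bases with RP3-395M20.8, which held 16.1 and 17.2 CPM in the responder and the non-responder after therapy and 15.5 and 14.5 CPM before therapy, against 85.5 CPM or more for TNFRSF14. TNFRSF25 shares 220 bases with ESPN and 104 bases with PLEKHG5, which stayed at or below 9.05 and 4.19 CPM, and TNFRSF9 shares 355 bases with RP5-892F13.2, which had at most 5 counts. TNFRSF4, TNFRSF18, ICOS, CD40LG and TNFSF14 overlapped no other entry.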

How the data were processed

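From sorted CD8+ T cells, 1 ng of total RNA per library was amplified as cDNA by an ultra-low-input kit and sequenced as paired reads of 101 bases, per the labels' protocols. bcl2fastq 1.8.4, TopHat2 and hg38 are named in the submitters' processing notes. The name of the counting tool, its strand setting and its annotation release were not given in the sources used here. The authors deposited raw counts per gene, 1 file per library, per the file headers. The counts carry no stated molecular identifiers, so intervals cover counting error only, and with so little input a transcript may be missed.

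Of 64253 genes, 4146 on alternate contigs and 617 sex-informative genes were left out, which leaves 59490, while library totals kept all counts. Counts were scaled by TMM in edgeR 4.0.16 (R 4.3.3). Ratios of 2 libraries used a prior count of 0.5 with exact conditional binomial 95% intervals, and intervals of single levels are exact Poisson intervals. The test across all genes was edgeR's quasi-likelihood test in an additive model of response and time after filterByExpr, two-sided, with Benjamini-Hochberg adjustment at 0.05. It has 1 residual degree of freedom, takes the interaction as error, and since no label names separate cultures or donors, its p-values reflect the spread of these libraries alone. The SE is the fitted ratio divided by the square root of F. DESeq2 1.42.0 and limma-voom (limma 3.58.1) used the same design. Leaving out a library leaves no residual degree of freedom and was not run.

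The 8 genes, the lists and the tests were chosen with earlier results of these data known. All 8 genes are named. From each pathway list, up to 3 genes with the largest response ratio at each time and at least 5 CPM were taken, along with the 3 nearest profiles. Genes outside that rule, named after their values were seen, are CD28, CTLA4, TRAF1, TNFSF4, TNFSF15, TNFSF18, ICOSLG, SDF4, B3GALT6, UBE2J2, RP5-902P8.12 and the single CD4 T cell, MAIT cell and NK cell markers. Not every gene the rule takes is printed. For CCR6 and ICOSLG, each on 2 entries, the shorter entry was used. Sequences of the human genes were not used here. Values of some single marker genes are not reported here.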

Additional observations from a re-analysis of the deposited data

Results flagged for a closer look

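Some of the 8 genes differed in opposite directions in the 2 pairs of libraries that make the same comparison, with the counting interval of each pair off 0. None of these differences was tested, since each group holds 1 library. For the responder over the non-responder, the log2 ratio after and before therapy was -0.87 and 1.01 for CD40LG, 0.74 and -0.50 for ICOS, -0.64 and 0.27 for TNFRSF25, and -0.27 and 0.21 for TNFRSF14. For after over before therapy, the log2 ratio in responder and non-responder libraries was 0.95 and -0.29 for ICOS, and -0.40 and 0.085 for TNFRSF14. CD40LG had the widest gap between the response ratios, -1.89 for after minus before therapy on the log2 scale, and ICOS the next, at 1.23.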

How the results depend on the processing

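Alternatives were DESeq2 size factors, library size only, a prior count of 2, other filters, DESeq2, limma-voom, and a fit without the other factor. The counts of the 8 genes at least 2-fold apart stayed at 2 after therapy and at 3 in each comparison of times, and came to 3 or 2 before therapy, where CD40LG crossed 2-fold. With library size only, the median of the 8 genes in the responder libraries was -0.54 rather than -0.43, and the median of all genes there -0.03 rather than 0.07. The count of genes called for response was 896 with DESeq2 and 0 in all other fits. For time it was 1516 with DESeq2, 35 over genes with at least 5 CPM in 2 libraries, 2 with limma-voom, 2 with no filter and 0 otherwise. The fitted response ratio of CD40LG, 0.06, turned to -0.0096 with the 5 CPM filter, -0.28 with limma-voom and -0.36 without time, and that of TNFRSF14, -0.03, to 0.019 with library size only. Over genes with at least 5 CPM in the pair, medians after therapy turned to 0.48 from -1.19 for B cell markers, to 0.74 from -0.37 for gamma-delta markers, to 0.61 from -0.04 for the CD28 and B7 families and to -0.27 from 0.11 for TNF ligands, and that of CD4 markers in responder libraries to -0.34 from 0.07. The cause of these turns was not tested. No paired analysis was possible because each group holds 1 library and the labels pair none. TNFRSF4 after therapy rests on 165 and 133 counts, and the interval of its response ratio includes 0.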
